A study of Rattus norvegicus with 13 samples.

Results

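The liver clears drugs, steroids, bilirubin and products of lipid oxidation by joining them to a water-soluble group, and the transcripts of 3 families of such conjugation enzymes were followed across a diet experiment in pregnant rats. The families were the UDP-glucuronosyltransferases (UGT), the sulfotransferases (SULT) and the glutathione S-transferases (GST). Members were the probe sets, other than controls, whose gene symbols in the array's annotation all began with Ugt1, Ugt2, Sult, Gsta, Gstm, Gstp, Gstt, Gstk, Gsto, Gstz or Mgst. The rule found 79 of 8740 probe sets, which named 44 different gene symbols. Of the 79, 58 listed 1 gene and 21 had several entries, among them the Sult1e1 probe sets, which listed that same symbol more than once. By the annotation, values of the others with several entries cannot be given to a single gene. Probe sequences were not compared, so a probe set listed with a single gene may also read related genes of its family. Gene names below are those of the annotation. 65 of the 79 were bright enough to be tested, among 5244 on the whole array.

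Hepatic RNA came from time-impregnated female Sprague Dawley rats on 4 diets, with 1 Affymetrix array for each of 13 samples. TEN-220 (n = 3), the control, was fed without ethanol at 220 kcal per kg body weight to the power 0.75 per day, and EtOH-220 (n = 3) had that energy with ethanol at 12 g per kg each day. TEN-160 (n = 3) was undernourished at 160 kcal without ethanol, and EtOH-160 (n = 4) was undernourished at 160 kcal with the same ethanol dose. Whether an array held 1 animal or a pool is left unsaid by the labels, so p-values measure the spread between these samples only. The day of gestation and the age of the rats are not given in the sources used here.

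UGT enzymes sit in the endoplasmic reticulum and transfer glucuronic acid from UDP-glucuronic acid. SULT enzymes are cytosolic and transfer sulfate from the donor PAPS, and GST enzymes add the tripeptide glutathione to reactive, electrophilic compounds. In liver these products leave through membrane transporters into bile or blood, and several of the genes are known targets of the receptors AHR, PXR and CAR and of the stress factor NRF2.

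Defining markers of hepatocytes were present: 7 of 8 listed genes were on the array, and none lay below the background signal of 44.0. The 3 arrays of TEN-160 differed most from the others. Over all 5244 tested probe sets, 787 (15.0%) had all 3 TEN-160 arrays above or below the other 10, against 61 to 150 for each other group. The spiked control ratio BioDn-5 over BioDn-3, which rat RNA does not set, spanned 0.422 to 0.497 in TEN-160 and 0.132 to 0.210 in the other 10 arrays. The GAPDH 3'/5' ratio, a measure of RNA integrity, spanned 1.525 to 2.323 in TEN-220, 1.038 to 1.47 in EtOH-220, 1.026 to 1.242 (TEN-160) against 1.505 to 1.726 (EtOH-160). Diet and these array differences cannot be told apart in any comparison that uses TEN-160. The GAPDH ratio also did not overlap between EtOH-220 and either TEN-220 or EtOH-160, so for it the same holds of ethanol at 220 kcal and of undernutrition in ethanol-fed rats. One array, TEN-220-1, was deposited at a trimmed mean of 133 against 501 on the other 12 arrays and was brought to their scale by quantile normalization.

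Values below are normalized signals, and a change is one group's mean log2 signal minus another's, followed by its standard error (SE) from the fit. A probe set was called at a Benjamini-Hochberg adjusted p under 0.05 over the 5244 probe sets (limma). Signals of different probe sets are not on a common scale, so levels are compared only within a probe set.

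Most calls among the conjugation probe sets came from the comparisons that have TEN-160 on one side. With ethanol at 160 kcal (EtOH-160 against TEN-160), 14 of 65 members were called, or 21.5%, and of all tested probe sets 22.3% were called. Of the 14, 8 were higher and 6 lower, but 14 were higher and 1 lower when arrays were instead centred on their median, which moved the median change of all probe sets from 0.02 to 0.13. With undernutrition in the absence of ethanol (TEN-160 against TEN-220), 12 members were called, or 18.5%, against 17.8% of all tested. All 12 were higher, but median centring, which moved the median of all probe sets from −0.03 to −0.16, gave 4 higher and 4 lower; 8 of the 12 rises were then no longer called. The rises that stayed were those of Ugt2b35, a Ugt1 probe set (D38065exon_s_at), Gsta4 (X62660mRNA_at) and the pair Gsta5 and Gsta2. Without the array TEN-160-2 the split was 8 higher and 5 lower. These shares were close to those of the array as a whole. In the values as deposited, Mgst3 was the only 1 of the 14 ethanol calls at 160 kcal that was kept. With TEN-220-1 alone rescaled, 15 members were called. Each family's median change was the same in these 2 settings, as with 0.871 for GST mu. TEN-220-1 is on neither side of this comparison, but the fit's estimate of spread is shared by all groups. Both comparisons use the same 3 TEN-160 arrays, so their values are given side by side and not as independent results.

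Fewer members passed the test in the other 4 comparisons. With ethanol at 220 kcal (EtOH-220 against TEN-220), limma called 0 of 65 members, 11 of which had an unadjusted p under 0.05, and 0.0191% of all tested probe sets were called. With undernutrition in ethanol-fed rats (EtOH-160 against EtOH-220), limma also called 0 members, 14 with an unadjusted p under 0.05, against 0.286% of all tested. With ethanol and undernutrition together against the control (EtOH-160 against TEN-220), 2 members were called, or 3.08%, against 2.23%, and both were higher. The interaction, the ethanol change at 160 kcal minus that at 220 kcal, which uses TEN-160 too, called 4 members, or 6.15%, against 7.13%. Of those 4, 1 was positive and 3 negative, but 4 were positive and 1 negative with median centring, which moved the median of all probe sets from 0.04 to 0.22.

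The share of members whose groups did not overlap was below or near that of all tested probe sets in both comparisons with TEN-160 and above it in the other 3. All EtOH-160 arrays lay on one side of all TEN-160 arrays for 16 of 65 members (24.6%) and for 31.1% of all tested probe sets. For TEN-160 against TEN-220 the figures were 24 of 65 (36.9%) and 36.5%. They were 18 (27.7%) and 17.8% for ethanol at 220 kcal, 12 (18.5%) and 10.2% for undernutrition in ethanol-fed rats, and 20 (30.8%) and 16.8% for both treatments against the control. Members that share genes or a locus are not independent, and these shares were not tested. The median change over the members was −0.03 with ethanol at 160 kcal and 0.04 with undernutrition without ethanol, against 0.02 and −0.03 over all tested.

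**Figure D1:**
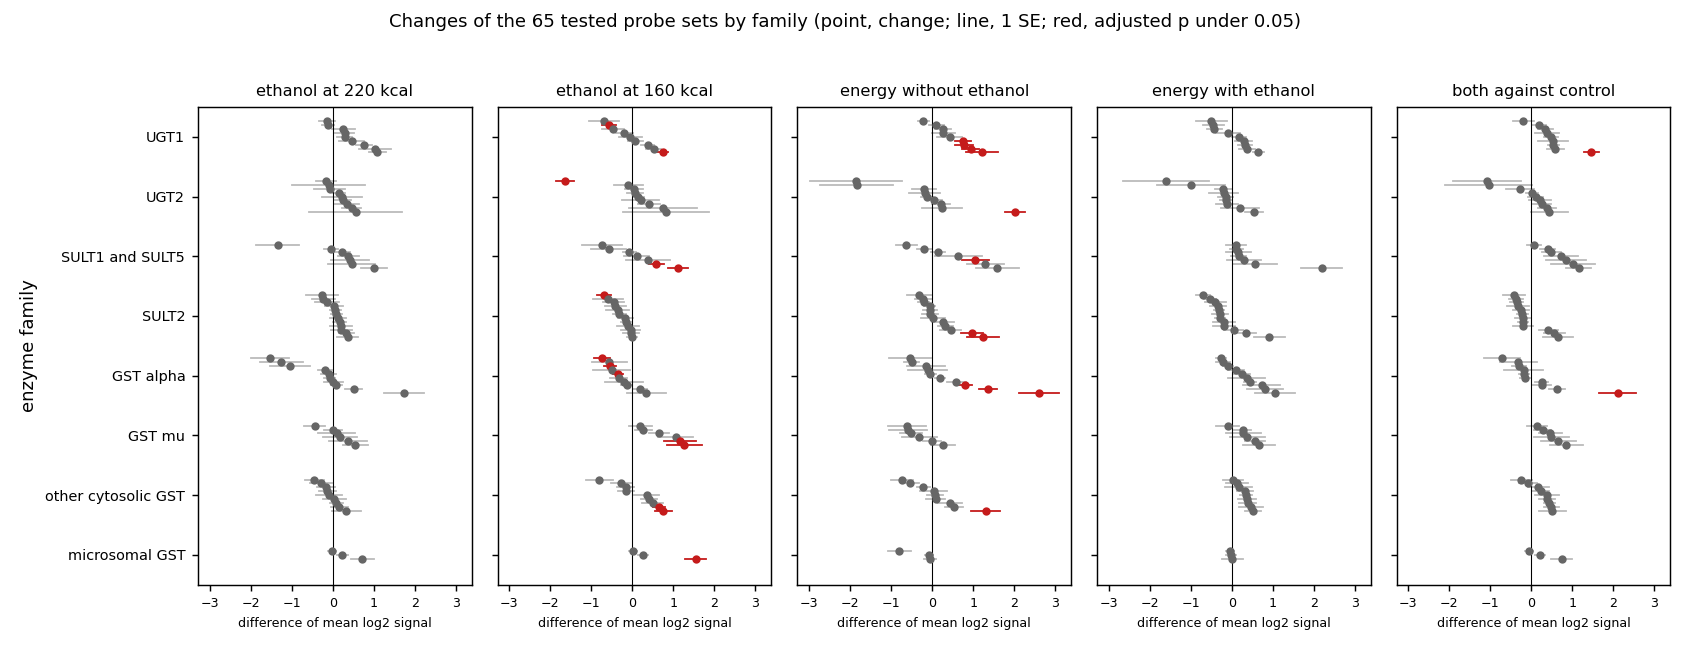
Differences of mean log2 signal for the 65 tested probe sets, 1 panel per pairwise comparison, with enzyme families down the y axis; each point is a probe set, its line 1 SE, and red marks an adjusted p under 0.05. Red points stand in the panels for ethanol at 160 kcal (14) and energy without ethanol (12), 2 stand in the panel for both against control, and the other 2 panels have none.

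The UGT1 enzymes are made from 1 gene locus, here on chromosome 9, in which each enzyme's own first exon is joined to exons that all share; the best known, Ugt1a1, conjugates bilirubin. Of 14 UGT1 probe sets, 9 were tested, and 4 of the 9 (44.4%) rose in TEN-160 against TEN-220, where 17.8% of all tested were called. With median-centred arrays 1 of the 9 was called higher. 4 probe sets named 8 Ugt1 genes and 8 named 6, so by the annotation most values here cannot be given to a single gene.

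A probe set naming 6 Ugt1 genes (D38065exon_s_at) was called higher both with undernutrition without ethanol and with both treatments against the control. Its signal was 222, 201 and 250.0 in TEN-220, 436, 439.9 and 561 in EtOH-220, 400.1, 382 and 521 in TEN-160, and 745, 464, 659 and 630.3 in EtOH-160. All 10 arrays of the other groups lay above the 3 control arrays. The change was 0.95 (SE 0.204, limma adjusted p = 0.00702) with undernutrition alone and 1.46 (SE 0.190, adjusted p = 0.00123), or 2.76-fold, with ethanol and undernutrition together. With ethanol at 220 kcal the change was 1.09 (SE 0.204), with no overlap but an adjusted p of 0.0705. Both calls held with any 1 array left out. In the second comparison 5 of 8 markers of periportal hepatocytes and 1 of 2 of macrophages were also called higher, against 2.23% of all tested called. The part of these cell types in this rise was not tested.

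Another probe set with 6 Ugt1 genes (AF039212mRNA_s_at) had 122, 116 and 115 in TEN-220 and 219, 160.3 and 228 in EtOH-220, a change of 0.76 (SE 0.192) that was not called (adjusted p = 0.215). On the 2 undernourished diets it ranged between 123 and 161 without ethanol and between 145 and 158 with it.

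The 4 probe sets naming 8 Ugt1 genes did not change alike. J05132_s_at had 5535, 5726 and 4605 in TEN-220, 4562, 4755 and 5262 in EtOH-220, 4473, 5216 and 4041 in TEN-160, and 7889, 8525, 7419 and 6769 in EtOH-160. The 4 EtOH-160 arrays lay above all the others, and ethanol at 160 kcal raised the signal 1.67-fold (change 0.74, SE 0.132, limma adjusted p = 0.00175). At 220 kcal the change was −0.12 (SE 0.141), and the interaction was 0.86 (SE 0.194, adjusted p = 0.0195). That interaction lost its call without TEN-220-1 (adjusted p = 0.0605) or TEN-220-2 (0.0571).

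J02612mRNA_s_at ran otherwise, with 2348, 2014 and 1781 in TEN-220, 1817, 1988 and 1756 in EtOH-220, 2879, 4773 and 2964 in TEN-160, and 2503, 2354, 2309 and 2119 in EtOH-160. The TEN-160 arrays were the 3 highest of all 13. It rose by 0.76 (SE 0.186, adjusted p = 0.0135) with undernutrition and fell by 0.57 (SE 0.174, adjusted p = 0.0316) with ethanol at 160 kcal. The rise lost its call without TEN-220-3 (0.0521). The fall lost it without TEN-160-2, where the change was −0.33 (adjusted p = 0.133), or without EtOH-160-2, EtOH-160-3 or EtOH-160-4 (0.0532, 0.0595 and 0.0757), and in 7 of 12 other settings, among them the replicate block (0.0731), trimmed-mean scaling (0.0606) and median-centred arrays (change −0.32, 0.313). The rise was lost with median-centred arrays (0.145).

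S56937_s_at had 933, 760.0 and 1018 in TEN-220, 1026, 904 and 1421 in EtOH-220, 1269, 2073 and 1381 in TEN-160, and 1533, 1084, 1472 and 1329.7 in EtOH-160. It rose by 0.78 (SE 0.225, limma adjusted p = 0.0297) with undernutrition without ethanol, a call lost without TEN-220-1, TEN-220-2 or TEN-160-2 (0.0719, 0.115 and 0.109), or with median-centred arrays (change 0.48, 0.15) or no filter (0.0552). D83796_s_at passed no test, with group means (geometric, as all means here) of 2951, 3616, 3166 and 4090.0 (control, ethanol, undernourished, both).

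Ugt1a5 is the single gene listed for D38069exon_s_at. That probe set had 154, 135 and 169.6 in TEN-220, 480.0, 219 and 287 in EtOH-220, 319.5, 296 and 476 in TEN-160, and 349.8, 109.6, 330.3 and 186 in EtOH-160. Each EtOH-220 and TEN-160 array lay above all control arrays, whereas EtOH-160 spread across them. The 2.33-fold rise with undernutrition (change 1.22, SE 0.396, limma adjusted p = 0.0475) was held in only 5 of 13 omissions of 1 array. It was lost without TEN-220-1, TEN-220-2 or TEN-220-3 (0.11, 0.13 and 0.0783), TEN-160-1, TEN-160-2 or TEN-160-3 (0.078, 0.0601 and 0.146), EtOH-220-3 (0.0587) or EtOH-160-4 (0.0575), and with median-centred arrays (0.0721), no filter (0.11) or no variance trend (0.0595). The pseudogene Ugt1a9-ps stayed between 46.9 and 104.5 on all arrays and was not called, nor was D38062exon_s_at, which names 6 Ugt1 genes and ranged from 61.6 to 141.

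The UGT2B enzymes conjugate steroids, bile acids and drugs and those on the array lie on chromosome 14. Of 11 UGT2 probe sets, 9 were tested and 1 was called. That one, Ugt2b35 (U06273_i_at), had the smallest adjusted p of any member. Its signal was 103, 145 and 126 in TEN-220, 112, 134 and 89.2 in EtOH-220, 587, 447 and 474 in TEN-160, and 163, 198, 115 and 176 in EtOH-160. The lowest TEN-160 array stood at 447 and the highest of the other 10 at 198.

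Ugt2b35 rose 4.05-fold with undernutrition without ethanol (change 2.02, SE 0.239, limma adjusted p = 0.000213) and fell by 1.64 (SE 0.223, adjusted p = 0.000396), or 3.12-fold, with ethanol at 160 kcal. With ethanol at 220 kcal the change was −0.16 (SE 0.239), and the interaction was −1.48 (SE 0.327, adjusted p = 0.018), which without TEN-220-1 was −1.35 and not called (0.0565). The pairwise calls held with any 1 array left out. The second Ugt2b35 probe set (U06274_s_at) did not follow the first. Its group means were 6198, 8526, 7206 and 7415 (control, ethanol, undernourished, both), and its change with undernutrition was 0.22 (SE 0.224, adjusted p = 0.543).

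The gene annotated as Ugt2b had the widest spread within groups of all members. On rc_AI169708_s_at the arrays read 5612, 5932 and 8558 in TEN-220, 14559, 8240.1 and 7576 in EtOH-220, 209, 12451 and 2304 in TEN-160, and 3916, 631, 5872 and 7169.7 in EtOH-160. The SD within groups was 1.70 on the log2 scale, the 2nd largest of the 5244 tested probe sets, whose median was 0.309. X03478cds_f_at, ranked 8th with an SD of 1.34, read 876, 12653 and 2238 in TEN-160 and 4473, 1046, 11469 and 10831 in EtOH-160.

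Both Ugt2b probe sets thus had their 3 lowest signals on TEN-160-1, TEN-160-3 and EtOH-160-2, whereas TEN-160-2 was among the highest arrays. The third, M74439mRNA_i_at, was low on TEN-160-3 alone, at 164 against 292 to 670.4 on the other 12. None of these was called in any comparison, with changes between undernourished and control arrays without ethanol of −1.86 (SE 1.13), −1.83 (SE 0.890) and −0.18 (SE 0.375). The spread over the members as a whole was not unusual, with a median SD of 0.309 for members and for all tested probe sets.

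Among the other UGT2 members, Ugt2b1, which glucuronidates morphine, had group means of 2393, 3033, 2091 and 2786, and Ugt2b15, an androgen-conjugating enzyme, 8539, 9537, 7825 and 8638 (order of groups as before). The probe set shared by Ugt2b15 and Ugt2b37 ranged from 5893 to 12555 and that of Ugt2b37 alone from 344 to 1672. None of these 4 was called in any comparison.

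**Figure D2:**
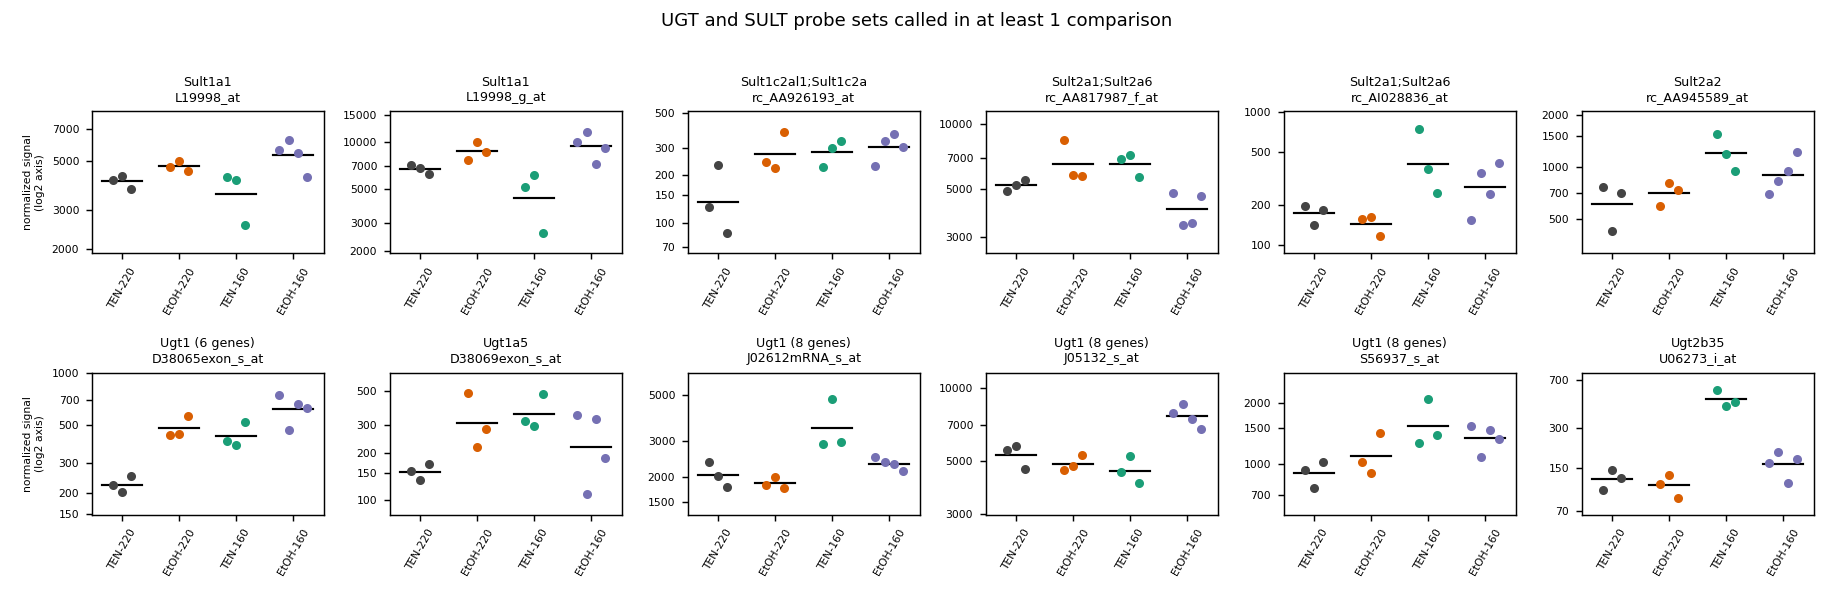
Normalized signal (log2 y axis) on every array for the 12 UGT and SULT probe sets called in at least 1 comparison, by diet group on the x axis; points are arrays and lines geometric means. TEN-160 stands above the other groups for Ugt2b35 (447 to 587), EtOH-160 above them for the Ugt1 probe set J05132_s_at (6769 to 8525), and TEN-220 below them for D38065exon_s_at (201 to 250.0).

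SULT1 enzymes sulfate phenols, thyroid hormones and estrogens. Of 11 SULT1 and SULT5 probe sets, 7 were tested. Sult1a1, the main phenol sulfotransferase, rose on both its probe sets with ethanol at 160 kcal. L19998_g_at had 7127, 6831 and 6244 in TEN-220, 7748, 10022 and 8714 in EtOH-220, 5168, 6140.5 and 2597 in TEN-160, and 10075, 11733, 7300.4 and 9218 in EtOH-160. The 3 TEN-160 arrays were the lowest of all 13.

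The ethanol change of L19998_g_at at 160 kcal was 1.12 (SE 0.243, limma adjusted p = 0.0058), or 2.17-fold, and it held with any 1 array left out. For L19998_at the signals were 4131, 4304 and 3758, then 4700.5, 5041 and 4546, then 4263, 4110.3 and 2571, and 5631, 6268, 5440.1 and 4263, in the same order of groups. Its change was 0.59 (SE 0.178, adjusted p = 0.0305), with TEN-160 and EtOH-160 touching at 4263. It fell to 0.35 without TEN-160-3 (adjusted p = 0.129) and was not called without EtOH-160-1, EtOH-160-2 or EtOH-160-3 (0.0676, 0.0771 and 0.0597), and it was kept in 6 of 12 other settings, being lost with trimmed-mean scaling (0.0611), no filter (0.0557) and array weights (0.0592) among others. With ethanol at 220 kcal the changes were 0.38 (SE 0.259) and 0.23 (SE 0.190), neither called, though all EtOH-220 arrays lay above all TEN-220 arrays on both.

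The probe set shared by Sult1c2al1 and Sult1c2a (rc_AA926193_at) had 126, 232 and 85.9 in TEN-220, 243, 222 and 379.8 in EtOH-220, 228, 301 and 330.2 in TEN-160, and 231, 330.3, 369.8 and 304 in EtOH-160. It rose by 1.05 (SE 0.326, limma adjusted p = 0.0391) with undernutrition without ethanol, though TEN-220-2 overlapped with TEN-160. The call was lost without TEN-220-1 (0.113), TEN-220-3 (change 0.72, 0.156), TEN-160-2 (0.0883), TEN-160-3 (0.11) or EtOH-160-4 (0.0509), and in 5 of 12 other settings, among them the replicate block (0.0546), median-centred arrays (0.0696) and no filter (0.0893).

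Sult1c3 (L22339_g_at) had the largest change of the tested members with undernutrition in ethanol-fed rats. It read 1266, 1363 and 939 in TEN-220, 397, 181 and 1371 in EtOH-220, 4158, 2393 and 4452 in TEN-160, and 2472, 1845, 2906 and 1508 in EtOH-160. Both groups at 160 kcal lay above both groups at 220 kcal on every array. The change was 2.19 (SE 0.496) with ethanol, at an adjusted p of 0.0871, and 1.59 (SE 0.530) without it, at an adjusted p of 0.053, so neither passed the test.

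Sult1b1, which sulfates thyroid hormones, had means of 1246, 1667, 3061 and 2054 from TEN-220 to EtOH-160 in the same order and was not called, the change with undernutrition being 1.30 (SE 0.454, adjusted p = 0.064). Sult1c2a on the probe set that lists it alone ranged from 72.1 to 607, with no call, and Sult5a1 from 361 to 571, with no call.

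SULT2A enzymes sulfate hydroxysteroids such as dehydroepiandrosterone, and bile acids. Of 13 probe sets, 12 were tested, and 3 of these were called. The genes Sult2a1, Sult2a2 and Sult2a6 are on chromosome 1. All 12 changes with ethanol at 160 kcal were negative, under each scaling run, and 1 was called. Their median was −0.24 against 0.02 over all tested, and the change of D14988_f_at was −0.005. The probe sets share 3 genes and each scaling used the same arrays, so these signs are not independent. The start regions of 2 of the genes were much alike. RefSeq promoters were laid side by side without gaps over 300 bases around the start (250 before, 50 after). Those of Sult2a1 and Sult2a6 were equal at 292 positions (97.3%). Sult2a1 and Sult2a2 were equal at 86 (28.7%), but this count does not measure their likeness, because the Sult2a2 window is shifted. A TATAAA stands at −50 to −45 in Sult2a1 and at −42 to −37 in Sult2a2, with the same run of letters after it in both. The lines below give 60 bases before and 40 after the start in the GRCr8 assembly, both on the minus strand. They lie at chr1:84638908-84639007 (Sult2a1) and chr1:84097769-84097868 (Sult2a6). Transcript and probe sequences of this pair were not compared. Capitals mark the TATA box letters TATAAA on either strand.
Sult2a1: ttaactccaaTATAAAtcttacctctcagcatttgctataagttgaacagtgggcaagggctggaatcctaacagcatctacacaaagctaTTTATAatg
Sult2a6: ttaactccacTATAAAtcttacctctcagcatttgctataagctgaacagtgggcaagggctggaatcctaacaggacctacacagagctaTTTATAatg

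In these 100 bases 95 positions were equal. A probe set annotated to both genes (rc_AA817987_f_at) had 4926, 5241 and 5535 in TEN-220, 8483, 5836 and 5726 in EtOH-220, 6889, 7169.7 and 5705 in TEN-160, and 4815, 3406, 3499 and 4641 in EtOH-160. The 4 EtOH-160 arrays were the lowest of all 13. The signal fell by 0.70 (SE 0.172, limma adjusted p = 0.0114), or 1.62-fold, with ethanol at 160 kcal, and this held with any 1 array left out but not with median-centred arrays (adjusted p = 0.105). The change at 220 kcal was 0.33 (SE 0.184), and the interaction was −1.03 (SE 0.251, adjusted p = 0.0283). The interaction was called in 6 of 13 omissions of 1 array and lost without TEN-220-1 or TEN-220-2 (0.0751 and 0.063), EtOH-220-1 (0.0509), TEN-160-1 or TEN-160-2 (0.0552 and 0.0532), or EtOH-160-2 or EtOH-160-3 (0.0511 and 0.0506), and with median-centred arrays (0.142), no filter (0.0562) or no variance trend (0.0502).

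Another probe set of the same pair (rc_AI028836_at) had 198, 141 and 184 in TEN-220, 156, 162 and 117 in EtOH-220, 749, 372 and 246 in TEN-160, and 154, 350.4, 242 and 416 in EtOH-160. It rose by 1.25 (SE 0.394, adjusted p = 0.0424, limma) with undernutrition without ethanol. That call held in 6 of 13 omissions and was lost without TEN-220-1, TEN-220-2 or TEN-220-3 (0.0785, 0.134 and 0.079), EtOH-220-2 (0.0521), TEN-160-1 (change 0.82, 0.166), TEN-160-2 (0.0693) or EtOH-160-3 (0.0531), and with median-centred arrays (0.063), no filter (0.101), no variance trend (0.0544) or a fit of the compared groups alone (0.0586). The third, M31363mRNA_f_at, had means of 22861, 25719, 22120 and 17775 and was not called.

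Sult2a2 rose on 1 of its 3 probe sets. On rc_AA945589_at the arrays read 765, 425 and 699 in TEN-220, 594, 803 and 737 in EtOH-220, 1548, 1177 and 947 in TEN-160, and 694, 821, 941 and 1221 in EtOH-160. The rise with undernutrition was 0.98 (SE 0.264, limma adjusted p = 0.0215), lost without TEN-220-2 (change 0.71, 0.101) or TEN-160-1 (0.084), and with median-centred arrays (0.077). The other 2 had changes of −0.31 (SE 0.285) and 0.03 (SE 0.297) in the same comparison. The 3 tested Sult2a1 and 3 Sult2a6 probe sets were not called in any comparison and lay between 7393 and 30144 on all arrays.

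GST alpha enzymes bind and conjugate electrophiles and lipid peroxides, and Gsta4 is known for 4-hydroxynonenal, an aldehyde of lipid peroxidation. All 10 alpha probe sets were tested; 3 rose with undernutrition without ethanol (2 with median-centred arrays) and 3 fell with ethanol at 160 kcal (0 with median-centred arrays). Gsta4 was called in both on both its probe sets. X62660mRNA_at had 675, 822 and 652 in TEN-220, 1112, 1228 and 767 in EtOH-220, 1659.9, 1959 and 1906 in TEN-160, and 1081, 962, 936 and 1472 in EtOH-160.

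On X62660mRNA_g_at the signals were 1652, 1672 and 1446, then 1069, 1599 and 1572, then 2730.3, 2765 and 2798, and 2002, 1988, 1789.5 and 1783, in the same order. The TEN-160 arrays were the 3 highest on both probe sets. The rise with undernutrition was 1.37 (SE 0.211, limma adjusted p = 0.000896), or 2.58-fold, and 0.80 (SE 0.161, adjusted p = 0.00466), or 1.74-fold, and both held with any 1 array left out, but the second was lost with median-centred arrays (change 0.49, 0.0846). The fall with ethanol at 160 kcal was −0.75 (SE 0.198, adjusted p = 0.0163) and −0.55 (SE 0.151, adjusted p = 0.0195). Both falls were lost with median-centred arrays (0.121 and 0.313), and the second also without TEN-160-1 or TEN-160-3 (0.0518 and 0.0513) and with the replicate block (0.0603).

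At 220 kcal the 2 Gsta4 probe sets had changes of 0.51 (SE 0.211) and −0.19 (SE 0.161), neither called. The interaction was −1.26 (SE 0.289, limma adjusted p = 0.0217) on the first, lost without TEN-220-1 (0.0605) or with median-centred arrays (change −0.89, 0.0799), and −0.36 (SE 0.221, adjusted p = 0.338) on the second.

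The probe set shared by Gsta5 and Gsta2 (rc_AI235747_at) had the largest change of any called member; Gsta5 is known for conjugating the epoxide of aflatoxin. It read 151, 162 and 71.6 in TEN-220, 178, 747 and 488 in EtOH-220, 993, 1054 and 375 in TEN-160, and 536, 488, 529 and 518 in EtOH-160. All 10 other arrays lay above the 3 control arrays. It rose by 2.60 (SE 0.486, limma adjusted p = 0.00291), or 6.08-fold, with undernutrition without ethanol, and this held with any 1 array left out.

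With ethanol and undernutrition together the same probe set rose by 2.10 (SE 0.455, adjusted p = 0.0298, limma), or 4.29-fold. That call held in 6 of 13 omissions and was lost without any one of TEN-220-1, TEN-220-2 and TEN-220-3 (0.0699, 0.0592 and 0.147) or of EtOH-160-1, EtOH-160-2, EtOH-160-3 and EtOH-160-4 (0.0529, 0.0587, 0.0835 and 0.0771), and with the replicate block (0.0746), no filter (0.116) or no variance trend (0.0524). With ethanol at 220 kcal its change was 1.74 (SE 0.486), not called (adjusted p = 0.275). Another probe set of the same pair (K00136mRNA_at) had means of 8117, 8202.5, 12270 and 9707, with a change of 0.60 (SE 0.224, adjusted p = 0.0832) for undernutrition without ethanol.

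Gsta1 fell with ethanol at 160 kcal on 1 of 3 probe sets, K01932_f_at, by 0.36 (SE 0.121, limma adjusted p = 0.0484). The arrays read 8872, 9488 and 9488 in TEN-220, 10320.0, 8483 and 7859.8 in EtOH-220, 11301, 11374 and 9253 in TEN-160, and 8199, 8381, 8872 and 7662 in EtOH-160. This call was close to the threshold. It was lost without TEN-220-1, TEN-220-2 or TEN-220-3 (0.0645, 0.0633 and 0.0606), EtOH-220-2 (0.0605), TEN-160-1 or TEN-160-2 (0.149 and 0.14) or any EtOH-160 array (0.0872, 0.0784, 0.0573 and 0.113), and in 6 of 12 other settings, among them the replicate block (0.13) and median-centred arrays (0.288). The other 2 Gsta1 probe sets had changes of −0.14 (SE 0.129) and 0.18 (SE 0.170) in that comparison.

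Gsta3 was low in EtOH-220 on all 3 of its probe sets, without a call. On S82820mRNA_s_at the arrays read 1855, 827 and 1390.2 in TEN-220, 606, 356 and 732 in EtOH-220, 693, 1834 and 554 in TEN-160, and 1460.0, 1817, 1296 and 472 in EtOH-160. All EtOH-220 arrays lay below all TEN-220 arrays here and on the other 2. The changes with ethanol at 220 kcal were −1.25 (SE 0.517), −1.04 (SE 0.485) and −1.52 (SE 0.466), with adjusted p of 0.474, 0.5 and 0.317. Within EtOH-160, replicate 4 was the lowest on all 3, at 472, 69.0 and 43.6.

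**Figure D3:**
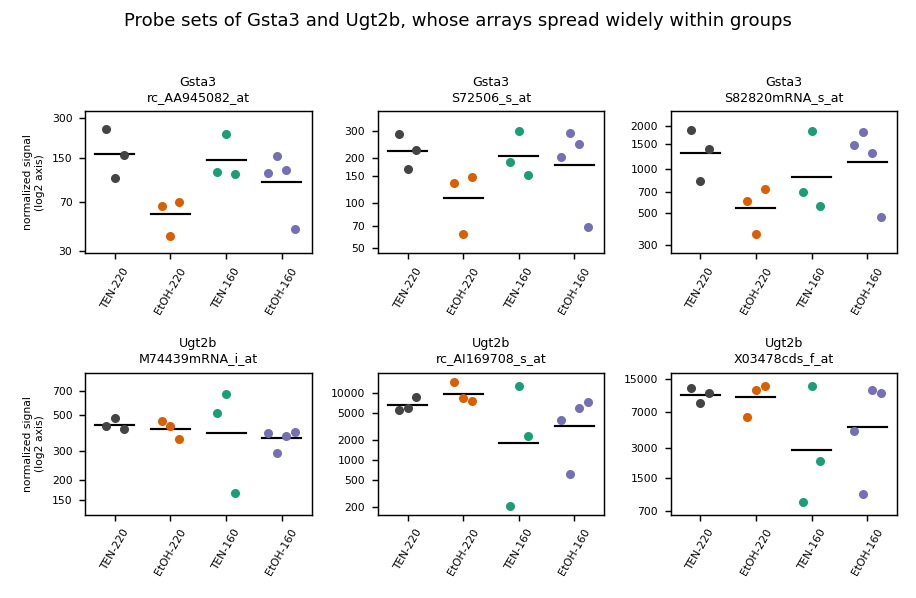
Normalized signal (log2 y axis) on every array for the 3 probe sets of Gsta3 (top) and the 3 of Ugt2b (bottom), by diet group on the x axis; points are arrays and lines geometric means. Ugt2b signals of 209 and 12451 stand within TEN-160, and the 3 EtOH-220 arrays lie below TEN-220 for Gsta3.

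GST mu enzymes conjugate aromatic and epoxide substrates. Of 8 mu probe sets, 6 were tested. All 6 had positive changes with ethanol at 160 kcal, under each scaling run, and 2 were called. Their median was 0.86 against 0.02 over all tested. Probe sets of 1 gene are not independent, and each scaling used the same arrays. Gstm2 (J03914cds_s_at) had 2226, 1057 and 1491 in TEN-220, 980.2, 2521 and 3083 in EtOH-220, 1126, 1742 and 503 in TEN-160, and 2047, 2935, 2052 and 2690.3 in EtOH-160. It rose by 1.27 (SE 0.426, limma adjusted p = 0.0464). TEN-160-3, at 503, was the lowest array, and without it the change was 0.78 (adjusted p = 0.216).

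The Gstm2 call was also lost without TEN-220-3 (0.0589), EtOH-220-2 (0.0528), TEN-160-1 (0.0807) or any EtOH-160 array (0.0666, 0.0983, 0.0653 and 0.0931), and with the replicate block (0.112), no filter (0.113) or no variance trend (0.0618). The second Gstm2 probe set (J02592_s_at) had a change of 1.06 (SE 0.428, adjusted p = 0.0918). Gstm7 (E01415cds_s_at) had 496, 420.3 and 504 in TEN-220, 461, 668 and 496 in EtOH-220, 522, 645 and 163 in TEN-160, and 532, 973, 1282 and 793 in EtOH-160.

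Gstm7 rose by 1.16 (SE 0.395, limma adjusted p = 0.0484) with ethanol at 160 kcal, and the groups overlapped. The call held in 2 of 13 omissions, those of TEN-160-2 and EtOH-160-1. Without TEN-160-3, which read 163, the change was 0.56 (adjusted p = 0.21). Without one of the other arrays the adjusted p was 0.0624, 0.0604 or 0.0605 (TEN-220-1 to TEN-220-3), 0.0539, 0.0554 or 0.0605 (EtOH-220-1 to EtOH-220-3), 0.05 (TEN-160-1), and 0.0961, 0.121 or 0.0757 (EtOH-160-2 to EtOH-160-4). The call was kept in 6 of 12 other settings and lost, among others, with the replicate block (0.0894) and no filter (0.112). The 3 Gstm1 probe sets had changes of 0.19 (SE 0.276), 0.27 (SE 0.205) and 0.65 (SE 0.243), none called.

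In the other cytosolic classes, 9 probe sets were tested and 3 called. Gstk1, the kappa enzyme of mitochondria and peroxisomes, had 2360.0, 1958 and 1934 in TEN-220, 2236, 1968 and 2435 in EtOH-220, 1837, 2066 and 1512 in TEN-160, and 2991, 2856, 2711 and 2695 in EtOH-160 on S83436_i_at. The 4 EtOH-160 arrays were the highest of all 13, and the ethanol change at 160 kcal was 0.65 (SE 0.142, limma adjusted p = 0.006), or 1.57-fold, a call kept with any 1 array left out. On its other probe set the change was 0.34 (SE 0.303, adjusted p = 0.45).

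Gsto1, an omega enzyme that reduces dehydroascorbate, had 2104, 2297 and 1202 in TEN-220, 1723, 1834 and 1317 in EtOH-220, 1160.0, 1186 and 1398 in TEN-160, and 1834, 2315, 2290.1 and 2014 in EtOH-160 on AB008807_g_at. It rose by 0.76 (SE 0.210, limma adjusted p = 0.0201) with ethanol at 160 kcal, with no overlap, but not without TEN-160-1 (0.0657) or TEN-160-2 (0.054). On AB008807_at the groups did not overlap either, at a change of 0.41 (SE 0.185, adjusted p = 0.131).

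Gstt2, a theta enzyme, had 1304, 1062 and 423 in TEN-220, 844, 1032 and 1348 in EtOH-220, 2454, 1878 and 1954 in TEN-160, and 1172, 1597, 830.3 and 1299 in EtOH-160 on rc_AI138143_at. The TEN-160 arrays were the 3 highest, and the rise with undernutrition was 1.31 (SE 0.353, limma adjusted p = 0.0206). Without TEN-220-3 it was 0.82 (adjusted p = 0.0628) and without TEN-160-1 it was not called either (0.0668), nor with median-centred arrays (0.0881) or no filter (0.0586). The second Gstt2 probe set (D10026_s_at) had a change of 0.54 (SE 0.213, adjusted p = 0.0999).

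Gstt1, which acts on small halogenated hydrocarbons, had means of 1072, 885, 643 and 906 and no call. Gstp1, known in rat liver as a marker of preneoplastic foci, ranged from 282 to 638 and from 102 to 223 on its 2 probe sets and was not called on either.

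The microsomal GSTs are membrane proteins with glutathione transferase and peroxidase activity. Mgst3 (rc_AA892234_at) had 1414, 1982 and 1503 in TEN-220, 2641, 2612 and 2746 in EtOH-220, 1128, 1296 and 543 in TEN-160, and 2061, 3181, 3275 and 2448 in EtOH-160. On both energy levels every ethanol array lay above every array without ethanol, and the TEN-160 arrays were the lowest. The change at 160 kcal was 1.54 (SE 0.262, limma adjusted p = 0.00137), or 2.91-fold, and it was called under every alternative run, deposited values and each omission of 1 array included.

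At 220 kcal the Mgst3 change was 0.72 (SE 0.280), not called (adjusted p = 0.445), and the interaction of 0.82 (SE 0.383) was not called either (0.208). Undernutrition without ethanol gave −0.80 (SE 0.280, adjusted p = 0.0635), and with ethanol 0.01 (SE 0.262). Mgst1, the abundant liver enzyme, stayed between 28973 and 35027 and Mgst2 between 1887 and 2755, with no call.

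**Figure D4:**
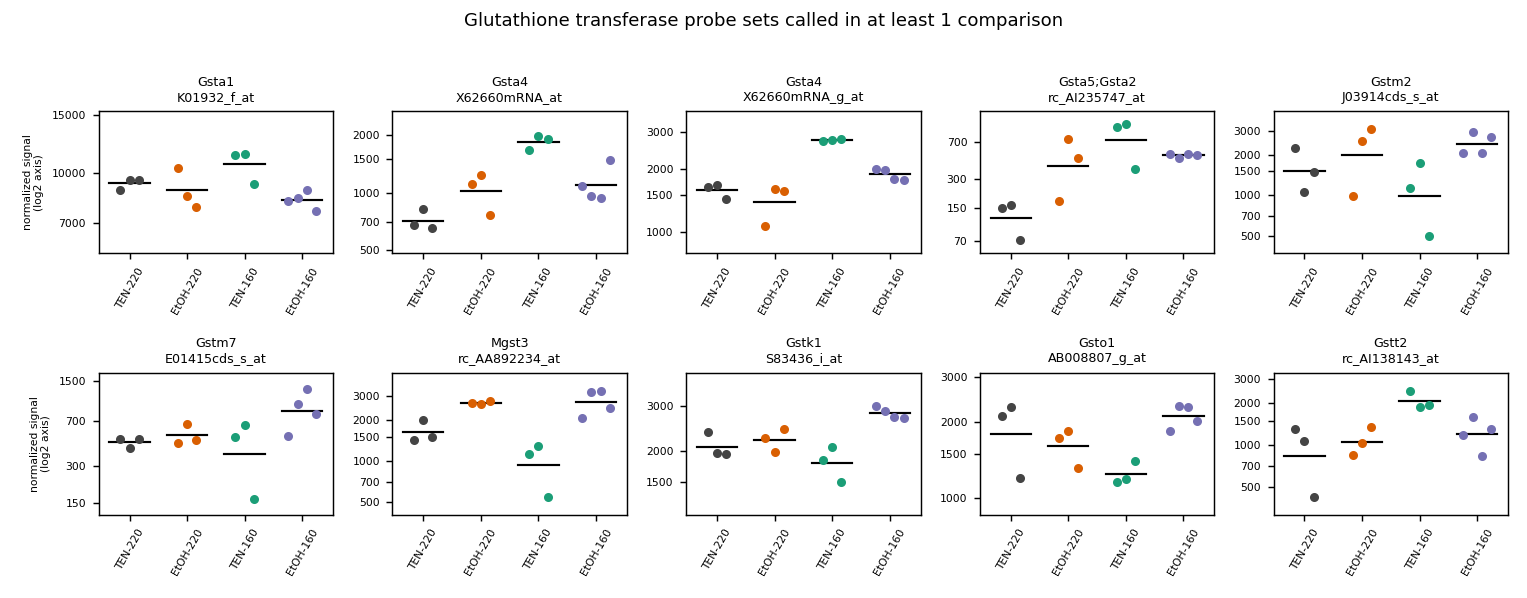
Normalized signal (log2 y axis) on every array for the 10 glutathione transferase probe sets called in at least 1 comparison, by diet group on the x axis; points are arrays and lines geometric means. TEN-160 is the highest group for both Gsta4 probe sets and for Gstt2 rc_AI138143_at and the lowest for Mgst3, where EtOH-220 reads 2612 to 2746 and EtOH-160 2061 to 3275.

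The start regions of Gsta4 (called with undernutrition) and Mgst3 (called with ethanol at 160 kcal) are shown with that of Gsta2, named by the most changed probe set together with Gsta5, because these windows hold matches to the motifs searched. The windows of Gstk1, Ugt2b35 and Sult1a1, each with a call that also held under any omission of 1 array, have 0 matches and are not shown. That of Gsta5, named by the same probe set as Gsta2, has 0 matches too. The windows shown are 300 bases of RefSeq sequence in the GRCr8 assembly, 250 before and 50 after the start. They lie at chr8:87947015-87947314 (plus strand), chr13:82080246-82080545 (minus strand) and chr8:88077043-88077342 (minus strand). Capitals mark, on either strand, the AHR motif core GCGTG, and in Gsta2 also the core TGACNNNGC of the antioxidant response element.
Gsta4: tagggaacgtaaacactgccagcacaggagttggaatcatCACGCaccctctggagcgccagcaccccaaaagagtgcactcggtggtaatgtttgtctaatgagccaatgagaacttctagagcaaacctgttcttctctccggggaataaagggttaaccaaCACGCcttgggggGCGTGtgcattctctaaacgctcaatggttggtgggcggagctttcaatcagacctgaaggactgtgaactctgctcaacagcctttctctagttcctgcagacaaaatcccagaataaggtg
Mgst3: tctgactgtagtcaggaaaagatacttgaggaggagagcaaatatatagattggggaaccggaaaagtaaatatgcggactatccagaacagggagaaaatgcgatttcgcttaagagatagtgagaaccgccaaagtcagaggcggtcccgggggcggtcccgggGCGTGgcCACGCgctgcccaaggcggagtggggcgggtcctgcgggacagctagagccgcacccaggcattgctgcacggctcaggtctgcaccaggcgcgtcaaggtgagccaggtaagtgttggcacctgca
Gsta2: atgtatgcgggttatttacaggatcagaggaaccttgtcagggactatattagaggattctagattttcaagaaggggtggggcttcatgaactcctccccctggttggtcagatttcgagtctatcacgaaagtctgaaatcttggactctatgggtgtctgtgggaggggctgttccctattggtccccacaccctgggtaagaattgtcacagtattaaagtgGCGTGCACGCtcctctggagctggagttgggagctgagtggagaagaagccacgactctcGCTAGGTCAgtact

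GCGTG stands 3 times in the Gsta4 window and 2 times in each of the others. Of 45 member gene IDs, 38 had a promoter in the table, with 39 promoters in all. GCGTG was in 10 of the 39 (25.6%) and in 29.7% of 33469 rat promoters of this length. TGACNNNGC was in 6 (15.4%) against 12.1%, and TATAAA in 9 (23.1%) against 14.2%. A match is a description of letters only.

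The 14 members too dim to test were both Gstm5 probe sets, 1 each of Sult1c3, Sult1d1, Sult2a1, Ugt2a1 and Ugt2b7, both of Sult1e1, and 5 that name 6 Ugt1 genes. Sult1e1, the estrogen sulfotransferase, read at most 139 and 85.6. Ugt2a1, an enzyme of the olfactory epithelium, ranged from 27.7 to 85.2 and Ugt2b7 from 24.2 to 62.9. The dim Sult1c3 probe set (L22339_at) ranged from 4.3 to 237, and Gstm5 read at most 60.7.

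Genes around the conjugation enzymes were followed in fixed lists, 1 brightest probe set a gene, which share the background of calls given above. Of 7 tested genes that supply the UGT and SULT donors, 3 fell with undernutrition without ethanol. These were Pgm1, which interconverts glucose phosphates (−0.70, SE 0.176), the sulfate transporter Slc26a1 (−0.55, SE 0.146) and the sulfite oxidase Suox (−0.57, SE 0.176), with limma adjusted p of 0.0151, 0.0188 and 0.0391. The list's median change was −0.11, against −0.03 over all tested. Suox rose by 0.71 (SE 0.165, adjusted p = 0.00822) with ethanol at 160 kcal.

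Of 18 genes of glutathione synthesis and recycling, 2 rose and 2 fell with undernutrition without ethanol (median −0.21 against −0.03). Cth, which makes cysteine from cystathionine, rose by 0.77 (SE 0.234) and Cdo1, which oxidises cysteine, by 0.45 (SE 0.135). The oxoprolinase Oplah changed by −1.22 (SE 0.245) and the glyoxalase Hagh by −0.74 (SE 0.163). With ethanol at 160 kcal 1 of the 18 rose, Oplah, by 1.15 (SE 0.229), and Cth was the 1 gene higher with both treatments together, by 0.99 (SE 0.219, limma adjusted p = 0.0331).

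The list of other phase II enzymes held genes that methylate, acetylate or couple to amino acids, and the sulfurtransferases Mpst and Tst. It had 4 higher and 2 lower of 8 with ethanol at 160 kcal (median 0.51 against 0.02). Glycine N-methyltransferase Gnmt rose by 1.51 (SE 0.236) and the sulfurtransferase Mpst by 1.07 (SE 0.184), whereas the bile acid conjugating Baat changed by −0.86 (SE 0.151) and Nat1 by −0.90 (SE 0.209). With undernutrition without ethanol, 3 of 8 fell, Tst, Mpst and Nat2, by 0.71, 0.81 and 1.66 on the log2 scale (SE 0.129, 0.197 and 0.463). With both treatments against the control, where 2.23% of all tested were called, 2 of 8 rose and 1 fell. Gnmt changed by 1.24 (SE 0.236), Acsm2 by 1.65 (SE 0.362) and Nat1 by −0.87 (SE 0.209), with limma adjusted p of 0.0165, 0.032 and 0.046. Of 8 hydrolases that release or split conjugates, Ces1d alone was called, at 2.08 (SE 0.321) with undernutrition and −2.42 (SE 0.300) with ethanol at 160 kcal.

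Transporters of conjugates and bile acids had 4 of 10 genes higher with undernutrition without ethanol (median 0.33 against −0.03). They were the bile acid uptake carrier Slc10a1 (1.18, SE 0.178), the organic anion carriers Slco1a4 (1.32, SE 0.293) and Slco1a1 (1.00, SE 0.253) and the phospholipid exporter Abcb4 (0.82, SE 0.221). With ethanol at 160 kcal 1 of the 10, Abcc6, rose. Slc10a1 was also higher with both treatments against the control, by 0.71 (SE 0.166, limma adjusted p = 0.0416).

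Of 19 regulators of drug metabolism genes, 4 rose with ethanol at 160 kcal (median 0.28 against 0.02), namely Cebpa by 0.84 (SE 0.139), Cebpb by 0.62 (SE 0.137), Nr0b2 by 1.08 (SE 0.252) and the P450 reductase Por by 0.72 (SE 0.183). With undernutrition without ethanol Ahr, the dioxin receptor, rose by 1.18 (SE 0.381, limma adjusted p = 0.0467), and Cebpb, Cebpa and Nr0b2 fell by 1.16, 0.59 and 0.98 on the log2 scale.

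Of 17 targets of NRF2 and AHR outside the 3 families, 2 rose with ethanol at 160 kcal, Aldh1a1 by 1.08 (SE 0.243) and Akr7a3 by 0.96 (SE 0.298), with a median of 0.22 against 0.02, and Tkt alone fell with undernutrition without ethanol (median −0.39 against −0.03). Of 14 P450 genes and partners regulated by PXR and CAR, 6 rose and 2 fell with ethanol at 160 kcal (median 0.33), with Cyp2b2 at 2.83 (SE 0.550) and Cyp3a23-3a1 at 1.84 (SE 0.310). Cyp3a23-3a1 also rose by 1.90 (SE 0.310, limma adjusted p = 0.00666) with both treatments against the control, which does not use TEN-160. In the list of sex-biased liver genes, 2 of 13 rose and 2 fell with ethanol at 160 kcal, among the latter the female-specific Cyp2c12 at −0.77 (SE 0.133). Cyp2c12 was higher in TEN-160 than in TEN-220, by 0.78 (SE 0.142, limma adjusted p = 0.00245). With both treatments against the control its change was 0.01 (SE 0.133). The 1 call of this list there was Cyp2c22 at −1.25 (SE 0.241, limma adjusted p = 0.0171). Por and Cyp2c12 each stand in more than 1 list. Over the 102 tested genes of the 9 lists, limma called 0 with ethanol at 220 kcal, 19 having an unadjusted p under 0.05, and 0 with undernutrition in ethanol-fed rats, 16 having one.

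Cell type markers were called in the same comparisons, in which 22.3% (ethanol at 160 kcal) and 17.8% (undernutrition without ethanol) of all tested probe sets were called. A single call among 6 or 7 markers is near these shares. Sums below run over all markers of a type on the array, tested or not (6 stellate, 3 macrophage and 7 pericentral). In them the brightest markers weigh most. With ethanol at 160 kcal, 5 of 8 periportal hepatocyte markers were higher, their summed signal being 27542 to 31775 (TEN-160) against 45130 to 67287 (EtOH-160). Of 6 tested pericentral markers 1 was higher in that comparison and 1 lower with undernutrition without ethanol, with sums of 21920 to 33902 (TEN-160) against 27920 to 38361 (EtOH-160). Stellate cell markers had 2 of 4 lower, with sums of 1880 to 4374 (TEN-160) against 1190 to 2036 (EtOH-160), and macrophage markers 1 of 2 higher, with 1162 to 2147 and 1558 to 1781. The 3 endothelial markers had 1 higher with undernutrition, with sums of 229 to 252 in TEN-220 and 333 to 603 in TEN-160. Of 7 hepatocyte markers 1 was lower with ethanol at 160 kcal, with sums of 172515 to 185735 (TEN-160) against 164375 to 174711 (EtOH-160), and no erythroid or bile duct marker was called, 3 and 2 being tested. In TEN-160 the erythroid sum ranged from 12765 to 24520, in EtOH-160 from 8198 to 14865. Markers were also called where TEN-160 was not used. Those comparisons called 2.23% (both treatments against the control) and 0.286% (undernutrition in ethanol-fed rats) of all tested probe sets. With both treatments against the control, 5 of 8 periportal markers and 1 macrophage marker were higher, the periportal sums being 25678 to 34691 in TEN-220, and with undernutrition in ethanol-fed rats 2 periportal markers were higher, from sums of 36316 to 38863 in EtOH-220. The part of these cell types in the changes of the conjugation genes was not tested, and in whole tissue fewer cells of a type and less RNA per cell cannot be told apart.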

How the data were processed

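The samples were 13 hepatic RNA samples on Affymetrix arrays, in 4 diet groups of 3, 3, 3 and 4. The deposited values are linear signal intensities made with MAS5, per the submitters' processing notes, with no version named there, and detection calls were not used. After 59 control probe sets were left out of 8799, the arrays were quantile-normalized, floored at the 10th percentile (9.338) and put on the log2 scale, and the lowest 40% by mean were left out. Group means were compared with limma 3.58.1 in R 4.3.3 (lmFit, eBayes with trend, two-sided, Benjamini-Hochberg over 5244 probe sets); the code was tested on simulated data. The background, 44.0, is the 95th percentile of 19 controls for sequences that rat RNA lacks. The number of arrays limits the precision.

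Members and gene lists were chosen with earlier results of these data known. Members called in any comparison are given by array, other tested members by means, ranges or counts, and dim members by name. List genes use the brightest tested probe set of a single gene. Alternatives were other scalings, floors and filters, no trend, array weights, the replicate number as a block, pairwise fits and each array left out. A fit without TEN-160 was added after seeing the data. Promoters are RefSeq's in GRCr8.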

Additional observations from a re-analysis of the deposited data

Results flagged for a closer look

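Among the 65 tested members, 2 EtOH-160 arrays stood far from the other 3 of their group. Ugt2b37 read 1015.6 on replicate 2 against 672.1 to 717.4 on the others, a gap of 0.842 of the group's range. Gstp1 (rc_AI012589_s_at) read 361.3 on replicate 1 against 476.8 to 488.5, a gap of 0.92 of the range. Chance alone sets such a mark in about 1 in 20 groups.

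For 4 members the ethanol change differed between 160 and 220 kcal by the interaction term of limma. It was 0.86 (adjusted p = 0.0195) for the probe set J05132_s_at of 8 Ugt1 genes. It was −1.03 (adjusted p = 0.0283) for rc_AA817987_f_at of Sult2a1 and Sult2a6, −1.48 (adjusted p = 0.018) for Ugt2b35 and −1.26 (adjusted p = 0.0217) for Gsta4. All 4 use the TEN-160 arrays, and none was called without TEN-220-1.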

How the results depend on the processing

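None of the 32 calls changed sign under any alternative run; 13 were kept with every single array left out, and 13 under every other alternative but the values as deposited, in which TEN-220-1 stays at a trimmed mean of 133 against 501. As deposited, 1 member was called with ethanol at 220 kcal (main 0), 1 with ethanol at 160 kcal (main 14), 1 with energy in ethanol-fed rats (main 0) and 1 for the interaction (main 4). The stricter filter gave 1 and array weights 2 with ethanol at 220 kcal. No filter gave 7 for energy without ethanol (main 12). For both against control (main 2), no filter and no variance trend gave 1 each and array weights 4. With each array left out in turn, the counts were 9 to 15 for ethanol at 160 kcal (9 without TEN-160-1 or EtOH-160-3) and 8 to 13 for energy without ethanol. They were 0 to 1 for energy with ethanol (1 without EtOH-220-3 or TEN-160-3), 1 to 4 for both against control (1 without TEN-220-1, TEN-220-3 or any EtOH-160 array, 4 without TEN-160-3) and 0 to 5 for the interaction (0 without TEN-220-1, 2 without TEN-220-2). The labels link same-numbered arrays by the number alone. Correlations of their deviations from group means ran from −0.112 to 0.0853. With 3 or 4 arrays a group, these cannot decide whether the arrays were paired. With the replicate block, 1 member was called for both against control, and over all probe sets the counts were 2, 890, 877, 2, 58 and 278 against 1, 1168, 932, 15, 117 and 374, in the order ethanol at 220 kcal, ethanol at 160 kcal, energy without and with ethanol, both against control and interaction. The fit without TEN-160, chosen after seeing the data, called 0, 0 and 2 members in the comparisons without that group. The cause of these differences was not tested. Signals near the background of 44.0 limit the 14 dim members.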
